A study of Sus scrofa with 15 samples.

Results

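The 5 replicate 2 wells of LLC-PK1 cells, 1 for each of 5 plasmids, were set against the 10 wells numbered 1 and 3 of the same plasmids, out of 15 wells in all. LLC-PK1 is a pig renal proximal tubule epithelial line, and RNA of the wells was sequenced 48 h after transfection by lipid reagent with 3 µg of plasmid per well. The plasmids were NC, an empty plasmid with the CAG promoter, a floxed neomycin cassette and pig Hipp11 sequence, and the same backbone with human PKD2 as WT, Tg1 (c.A1532T, D511V), Tg2 (c.T1967G, L656W) or Tg3 (c.C2224T, R742X). All wells, those of NC included, therefore received plasmid DNA, no untransfected well was analysed here, and each plasmid had 3 libraries. Which wells were plated or transfected together is not given in the labels or the methods, so a replicate number is only a shared number and not a known batch.

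The wells were chosen by the replicate number in the sample labels. The comparison of number 2 with the others was selected with results of these data known, so its p-values are given as a description. The test of any difference among the 3 numbers does not single out number 2. The amount of plasmid transcript in each well was not analysed here, and neither were pig PKD1 and PKD2. Library totals lay between 20216200 and 26132196 counts, and 11553 of 16660 genes, those with a mean of at least 2 CPM over the 15 libraries, were tested. CPM is a gene's count scaled to the size of its library. AMT was just inside this minimum at 2.00 CPM and IGSF9 just outside it at 1.99 CPM. The 11553 genes held 99.83% of all counts. All 14 markers of proximal tubule or epithelium that were examined had a mean of at least 2 CPM. Of 19 markers of fibroblasts, endothelium and leukocytes, 6 did, and PTPRC, PDGFRA, PDGFRB, CDH5 and KDR had means between 0.0057 and 0.0173 CPM.

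Interferons are cytokines that cells release when sensors such as RIG-I (the product of DDX58), MDA5 (IFIH1) and cGAS meet foreign RNA or DNA in the cytosol. Type I and type III interferons act back on the same and neighbouring cells through JAK kinases and transcription factors that include STAT2 and IRF9, which switch on antiviral effectors, antigen presentation genes and chemokines. Renal tubule epithelium has this pathway, and USP18 and SOCS1, themselves induced, restrain it.

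Between wells of the same plasmid, the interferon-related genes were the group that differed most visibly. In NC, WT and Tg3 the replicate 2 well was highest for nearly the whole group, whereas in Tg1 it was level with replicate 3 and in Tg2 it lay below replicate 1. The 6 lists of genes, from ligands to chemokines, hold 138 symbols, of which 122 were found in the count table and 120 passed the minimum. IFNE at 0.596 CPM and IL15 at 1.44 CPM did not pass. The 16 symbols without a match include synonyms of members that did match, such as IFNL3 for IL28B and STING1 for TMEM173. They also include IFIT3, OAS1, IFITM1, GBP5, XAF1, RTP4, IFNA1, IFNG, TAPBP, SLA-1, SLA-2 and SLA-3, which the results on the lists do not cover. Of the 120 genes, 116 had their highest level in replicate 2 in NC, 116 in WT and 112 in Tg3. In Tg1, 79 were highest in replicate 3 and 40 in replicate 2. In Tg2, 107 were highest in replicate 1 and 9 in replicate 2. Over all 11553 genes tested, replicate 2 was highest for 4456 in NC, 4421 in WT and 4249 in Tg3. Replicate 3 was highest for 3892 of them in Tg1, and replicate 1 for 4152 in Tg2. The lowest well was replicate 3 for 109 genes in NC, 114 in WT, 114 in Tg2 and 105 in Tg3, and replicate 1 for 115 genes in Tg1. Over all genes tested these wells were lowest for 4159 in NC, 4189 in WT, 4613 in Tg2, 3991 in Tg3 and 4247 in Tg1. The well that was low was thus not the same number in every plasmid either.

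**Figure D1:**
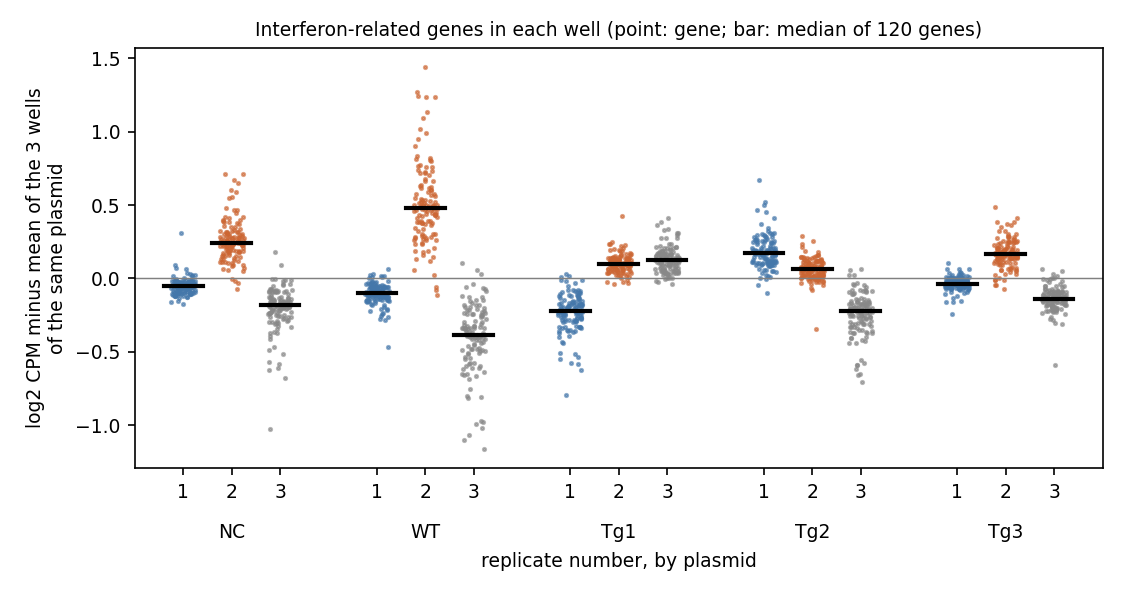
Deviation of each of 120 interferon-related genes (points) from the mean of the 3 wells of its plasmid, in log2 CPM, for all 15 wells, with the median as a bar; colours mark replicate 1 (blue), 2 (orange) and 3 (grey). The median was highest in WT replicate 2 at 0.48 and lowest in WT replicate 3 at -0.39, and in Tg2 it was replicate 1, at 0.17, that stood above the other wells.

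The size of the difference varied by plasmid in the values, and WT spanned the most. The median over the 120 genes of the highest well divided by the lowest was 1.82-fold in WT, against 1.34-fold in NC, 1.31-fold in Tg2, 1.28-fold in Tg1 and 1.23-fold in Tg3. As a log2 difference of replicate 2 from the mean of the other 2 wells, the median was 0.72 in WT, 0.37 in NC, 0.25 in Tg3, 0.15 in Tg1 and 0.09 in Tg2. In all 5 plasmids the median was thus above 0, while over all 11553 genes it lay between -0.0082 and 0.0024. Whether the replicate 2 difference depended on the plasmid was tested for each gene with edgeR, and 0 genes (0% of those tested) passed, with 212 at an unadjusted p under 0.05 and a smallest adjusted p of 0.311. The test gives no gene for which the plasmids can be said to differ in this respect.

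In the test of replicate 2 against replicates 1 and 3, with the plasmid as a block, edgeR's quasi-likelihood test called 0 of the 11553 genes (0%) with an adjusted p of at most 0.05 and a log2 fold change of at least 0.26 in size. The smallest adjusted p was 0.0787, and DESeq2 called 195 genes, 176 of them higher in replicate 2, including 50 of the 120 interferon-related genes. At an unadjusted p under 0.05 in edgeR, 1576 genes (13.6%) were higher and 1507 (13%) lower in replicate 2. Of the 120 interferon-related genes, 113 were higher at that level and 0 lower, and 117 had a positive log2 fold change, the exceptions being TRAF3, JAK1 and MAVS. Their median log2 fold change was 0.31, against -0.0045 over all genes tested, of which 5518 had higher and 6030 lower values. With edgeR the count stayed at 0 in 13 of the 15 fits that left out 1 well, and it changed for 2 wells. Without Tg2 replicate 1, edgeR called 640 genes, 475 of them higher, with 89 interferon-related genes, and without Tg1 replicate 3 it called 507 genes, 386 of them higher, with 84 interferon-related genes. Those are the 2 wells outside replicate 2 in which most interferon-related genes were highest in their plasmid. Without the whole Tg1 plasmid edgeR still called 0 genes, and without the whole Tg2 plasmid it called 548. The cause of these changes was not tested.

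The ligand list had 6 tested members, all with higher values in replicate 2. IFNB1, which encodes interferon beta, was close to the minimum, at 2.16, 3.09 and 1.39 CPM in NC replicates 1, 2 and 3, 0.884, 3.44 and 0.613 CPM in WT, 2.78, 3.23 and 3.08 CPM in Tg1, 5.07, 2.48 and 2.52 CPM in Tg2, and 2.68, 3.49 and 1.63 CPM in Tg3. Replicate 2 was above both other wells in 4 plasmids and below both in Tg2. Its log2 fold change of replicate 2 against 1 and 3 was 0.55 with an SE of 0.28 (adjusted p = 0.222, edgeR; exact permutation within plasmids, two-sided, p = 0.0782). IL28B, an interferon lambda of the type III family, had 11.2, 16.2 and 7.44 CPM in NC, 8.52, 23.8 and 5.04 CPM in WT, 12.9, 21.6 and 22.1 CPM in Tg1, 32.4, 25.6 and 15.5 CPM in Tg2, and 14.6, 20.5 and 12.9 CPM in Tg3 for replicates 1, 2 and 3. Replicate 2 was 4.72-fold above replicate 3 in WT and below replicate 1 in Tg2. The log2 fold change of IL28B was 0.69 with an SE of 0.23 (edgeR adjusted p = 0.0879). The identifier ENSSSCG00000035185, outside the interferon lists, had nearly the same values, such as 23.8 CPM in WT replicate 2 and 5.08 CPM in WT replicate 3. How reads were divided between it and IL28B was not examined. IL27, a cytokine of the IL-12 family, gave 0.62 with an SE of 0.24, and IL7 gave 0.31 with an SE of 0.08.

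IL6, an inflammatory cytokine also counted among the NF-kappaB genes, was 1 of only 2 interferon-list members whose replicate 2 level was above both other wells in all 5 plasmids. Its levels in replicates 1, 2 and 3 were 43.8, 56.0 and 36.9 CPM in NC, 49.6, 72.8 and 36.5 CPM in WT, 57.3, 82.7 and 80.0 CPM in Tg1, 96.4, 101.1 and 64.6 CPM in Tg2, and 71.1, 76.0 and 58.4 CPM in Tg3. The other was CCL19, a chemokine for T cells and dendritic cells, with a log2 fold change of only 0.08 (SE 0.03) and 73.7 to 95.7 CPM over the 15 wells. Over all genes tested, 179 (1.55%) were above both other wells in all plasmids and 262 (2.27%) below, so 2 of 120 is a share near that background. In contrast, 97 of the 120 were above the mean of the other wells in every plasmid, against 1494 of all 11553 genes.

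Among 14 sensors and adaptors, 12 had higher values in replicate 2 and 11 of them had an unadjusted p under 0.05. DDX58 had 1194, 1622 and 1024 CPM in NC replicates 1, 2 and 3, 1078, 1909 and 741 CPM in WT, 1249, 1761 and 1825 CPM in Tg1, 2478, 2273 and 1716 CPM in Tg2, and 1750, 2132 and 1626 CPM in Tg3. The lowest WT well was below all NC wells, and the highest was above all of them, so the spread within WT exceeded that within NC. The log2 fold changes were 0.47 with an SE of 0.13 for DDX58 and 0.38 with an SE of 0.12 for IFIH1. CGAS, the DNA sensor, had a mean near the minimum and the largest spread of the list, with a within-plasmid SD of 0.72 on the log2 scale and values from 0.613 CPM in WT replicate 3 to 3.63 CPM in Tg2 replicate 1. TMEM173, the adaptor STING on which cGAS acts, gave a log2 fold change of 0.30 with an SE of 0.09. MAVS, the adaptor of RIG-I and MDA5, and IRF3, the transcription factor that both routes activate, varied little. Their within-plasmid SDs were 0.09 and 0.06, below or near the median of 0.09 over all genes, and their log2 fold changes were -0.07 (SE 0.05) and 0.06 (SE 0.03).

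Of 18 receptor and signal transduction genes, 17 had higher values in replicate 2 and 15 had an unadjusted p under 0.05. The kinase JAK1 was the steadiest member of the 6 lists. Its lowest level over the 15 wells was 227.5 CPM and its highest 248.8 CPM, with a within-plasmid SD of 0.033 and a log2 fold change of -0.04 (SE 0.02). STAT2, a subunit of the interferon-activated transcription factor, reached 431 CPM in replicate 2 against 308 and 287 CPM in NC, and 500 CPM against 286 and 221 CPM in WT. In Tg2 replicate 1 stood highest for STAT2 at 640 CPM, before replicate 2 at 571 CPM and replicate 3 at 436 CPM. Of the feedback genes, USP18 and SOCS1 were among the most variable of the list. Within-plasmid SDs were 0.44 for USP18, a protease that removes ISG15 and restrains the receptor, and 0.36 for SOCS1, an inhibitor of JAK kinases. The related SOCS3 varied less, with deviations from its plasmid mean of -0.19 to 0.26 in WT and smaller ones in the other plasmids. USP18 had 59.4, 120.4 and 45.4 CPM in WT replicates 1, 2 and 3 and 169.98, 151.1 and 106.0 CPM in Tg2. The receptor chain IFNAR2 gave a log2 fold change of 0.28 (SE 0.08) and IRF2, a regulator of interferon genes, 0.34 (SE 0.09).

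All 52 tested antiviral effectors had higher values in replicate 2 with an unadjusted p under 0.05. Their median log2 fold change was 0.34 and their median within-plasmid SD 0.29. IFIT2, which binds viral RNA, had 1336, 1979 and 1106 CPM in NC replicates 1, 2 and 3, 1127, 2532 and 729 CPM in WT, 1555, 2299 and 2408 CPM in Tg1, 3393, 2992 and 2022 CPM in Tg2, and 2057, 2672 and 1842 CPM in Tg3. WT replicate 2 was 3.47-fold above WT replicate 3, and it was also higher than all 3 wells of NC and Tg1. The log2 fold change was 0.61 with an SE of 0.18 for IFIT2 and 0.57 with an SE of 0.17 for OASL, a protein related to the oligoadenylate synthetases. SIGLEC1, a sialic acid receptor best known from macrophages, had the largest within-plasmid SD of the list, 0.56, with levels from 19.6 CPM in WT replicate 3 to 127.1 CPM in Tg2 replicate 1. ISG12(A), of the IFI27 family, gave 0.50 with an SE of 0.13. The IFIT and OAS genes belong to families whose transcripts resemble each other, and how reads were divided among such copies was not examined.

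**Figure D2:**
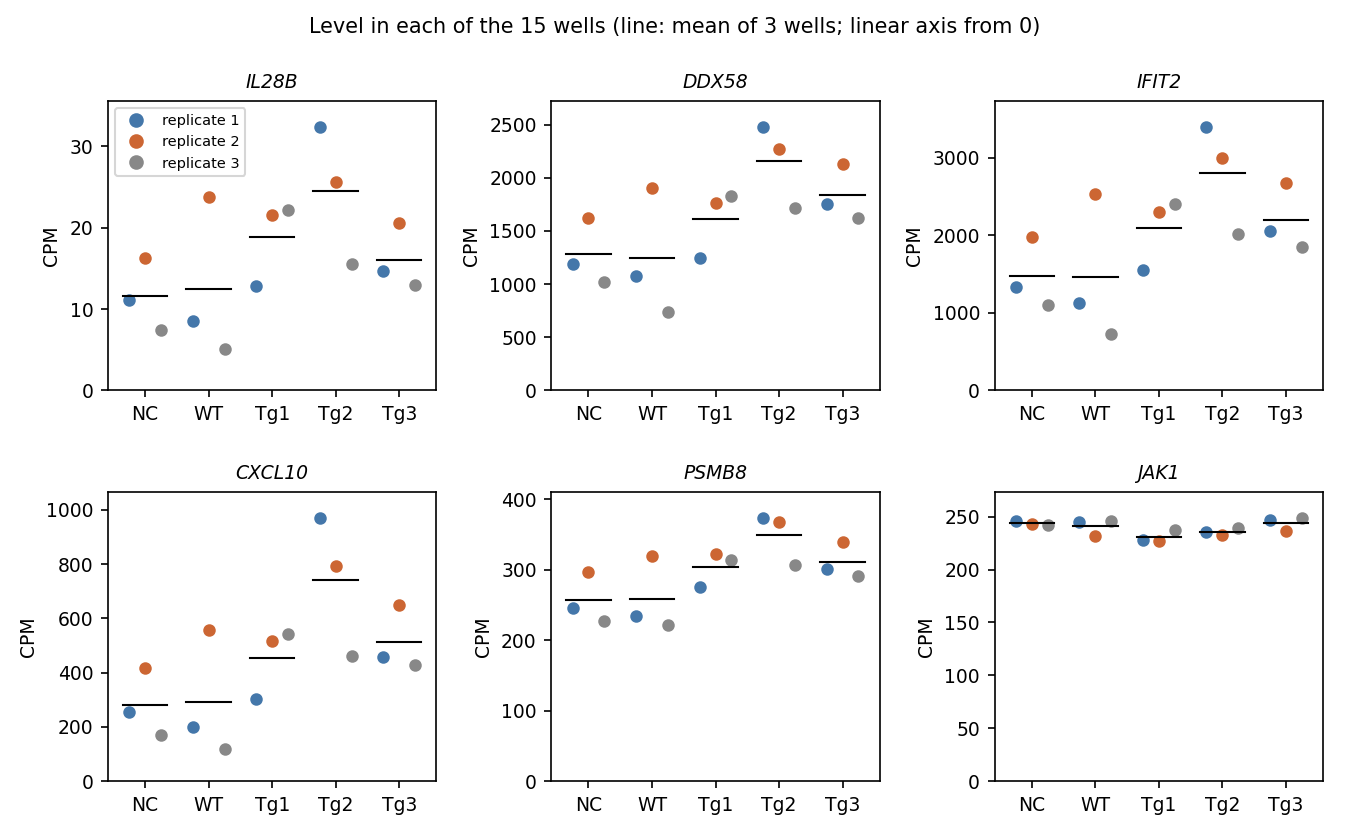
Level in CPM (linear axes from 0) of 6 interferon-related genes in each of the 15 wells, coloured by replicate number, with a line at the mean of the 3 wells of each plasmid. For IL28B, DDX58, IFIT2 and CXCL10 replicate 2 was the highest well in NC, WT and Tg3, replicate 3 in Tg1 and replicate 1 in Tg2, whereas PSMB8 varied less and JAK1 stayed between 227.5 and 248.8 CPM.

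All 10 tested chemokines and GTPases of the interferon response had higher values in replicate 2, each with an unadjusted p under 0.05. Their median log2 fold change was 0.51. CXCL10, a chemokine for activated T cells, had 254.5, 417.1 and 170.4 CPM in NC replicates 1, 2 and 3, 198.6, 557.1 and 120.4 CPM in WT, 304.4, 518.3 and 541.2 CPM in Tg1, 970.3, 792.7 and 462.9 CPM in Tg2, and 458.8, 649.8 and 428.0 CPM in Tg3. Its lowest well in Tg2 was above the highest in NC, while WT overlapped with NC, Tg1, Tg2 and Tg3. The log2 fold change was 0.78 with an SE of 0.23 for CXCL10 (edgeR adjusted p = 0.0799; exact permutation p = 0.0247) and 0.80 with an SE of 0.24 for CXCL11 (edgeR adjusted p = 0.0802; exact permutation p = 0.0247). The smallest p that this exact test can give, over 243 assignments of the number 2 within plasmids, is 0.00412. CCL2, a monocyte chemokine, gave 0.67 (SE 0.19) with 44.8 CPM in WT replicate 3 and 157.6 CPM in WT replicate 2, and CCL5 gave 0.49 (SE 0.14). UBD, a ubiquitin-like protein induced by interferon gamma and TNF, gave 0.47 (SE 0.12). CXCL9 was at 1.45 to 15.7 CPM and had a within-plasmid SD of 0.72. Whether reads were shared among CXCL9, CXCL10 and CXCL11 was not examined.

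All 20 tested antigen processing and presentation genes had higher values in replicate 2 with an unadjusted p under 0.05. The differences were smaller, with a median log2 fold change of 0.25 and a median within-plasmid SD of 0.19. PSMB8, a subunit of the immunoproteasome, had 247, 297 and 227 CPM in NC replicates 1, 2 and 3, 235, 320 and 221 CPM in WT, 276, 323 and 314 CPM in Tg1, 374, 369 and 306 CPM in Tg2, and 301, 340 and 292 CPM in Tg3. Replicate 2 was highest in 4 plasmids, and its log2 fold change was 0.25 with an SE of 0.06. PSME2, an activator subunit of the proteasome, gave 0.25 (SE 0.06). CIITA, the regulator of class II genes, gave 0.33 (SE 0.10), and HLA-DRA, a class II chain, 0.34 (SE 0.09).

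Tests of single pairs of numbers differed in their unadjusted counts, which were largest between replicates 2 and 3. For that pair edgeR called 0 genes (0%), with 3337 (28.9%) at an unadjusted p under 0.05 and a smallest adjusted p of 0.06. DESeq2 called 445. Between replicates 2 and 1 edgeR called 0 genes (0%), with 1463 (12.7%) at that level, and DESeq2 called 0. Between replicates 1 and 3 edgeR called 0 genes (0%), with 483 at that level, or 4.18% of the genes tested, and DESeq2 called 1. In the test of any difference among the 3 numbers edgeR called 0 genes (0%), with 2364 at that level, and DESeq2 called 265. Leaving out Tg1 replicate 3 gave 1157 genes for replicate 2 against 3 and 1692 for any difference, and leaving out Tg2 replicate 1 gave 600 and 947. For replicate 2 against 3, leaving out Tg1 replicate 2 gave 2 genes and leaving out Tg3 replicate 1 gave 1 gene. The median log2 fold change of the 120 interferon-related genes was 0.37 for replicate 2 against 3, 0.26 for 2 against 1 and 0.11 for 1 against 3.

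The spread between wells of the same plasmid was then described without regard to the number. Over all genes the median within-plasmid SD of log2 CPM was 0.0926, and over the 120 interferon-related genes it was 0.2654. Of the latter, 91 had an SD over 2 times the median of all genes, which is 75.8% against 15.0% of all genes. For pairs of wells, 1.69% of 9539 genes with a mean of at least 10 CPM differed by 0.26 or more on the log2 scale between Tg1 replicates 2 and 3, and 21.9% between WT replicates 2 and 3. The chi-square per degree of freedom over these pairs ranged from 2.73 between Tg3 replicates 1 and 3 to 40.3 between WT replicates 2 and 3. No pair agreed within sampling noise, and each library was counted as a sample of its own.

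A principal component analysis of the deviations of the 9539 genes from their plasmid means placed 61.6% of this variance on the first component and 6.36% on the second. The sign of a component is arbitrary, and that of the first was set so that the antiviral effectors had a positive mean loading. Replicate 2 scored above 0 in every plasmid, with 15.3 in WT, 8.05 in NC, 6.41 in Tg3, 3.07 in Tg1 and 2.67 in Tg2. Replicate 1 ranged from -7.11 in Tg1 to 7.07 in Tg2 and replicate 3 from -11.4 in WT to 4.04 in Tg1. Of the 115 interferon-related genes among them 112 had a positive loading, against 49.0% of all genes, and 28 of the 100 highest loadings were theirs. That this shared sign is positive follows from how the sign was set. Without the 115 genes the first component still held 58.5% of the variance and ordered the wells of each plasmid in the same way. Genes outside the lists thus carried it too. List symbols without a match, such as IFIT3 and OAS1, could not be taken out, so interferon-related genes may remain among the rest. Without WT replicate 2 the share with all genes was 52.3%.

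**Figure D3:**
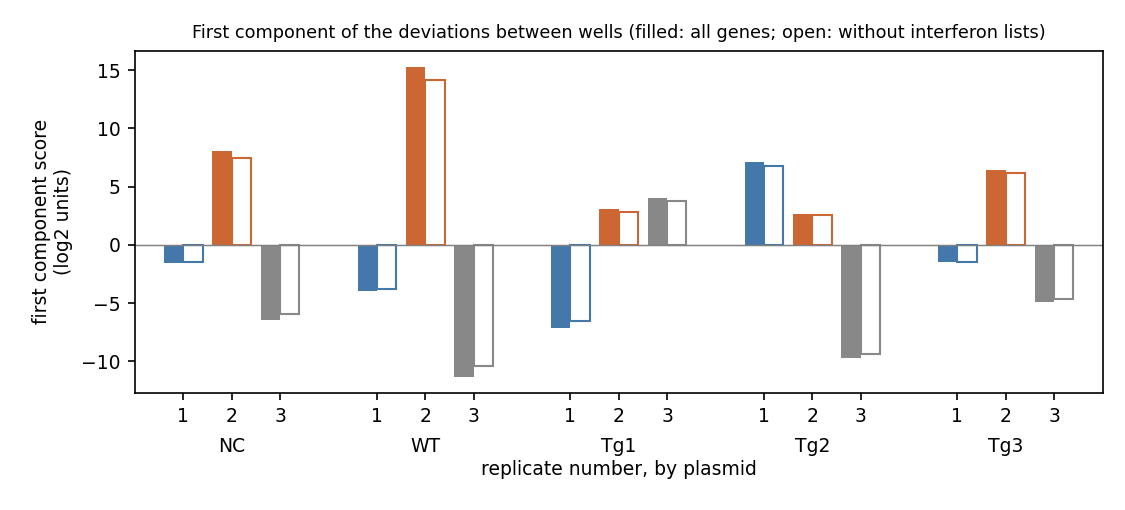
Score of each of the 15 wells on the first principal component of the deviations from the plasmid mean (log2 units), with all 9539 genes (filled bars) and without the interferon lists (open bars), coloured by replicate number. WT replicate 2 had the highest score, 15.3, and WT replicate 3 the lowest, -11.4, and filled and open bars had the same sign in each well. The sign of the open bars as a set was matched to that of the filled bars.

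The share of counts from the 13 mitochondrially encoded genes moved with this component in part. It ranged from 2.66% in Tg3 replicate 2 to 3.42% in NC replicate 3. In WT it was 3.19%, 2.87% and 3.25% in replicates 1, 2 and 3, and in Tg2 2.69%, 2.91% and 3.04%, so the lowest share was in the well with the highest score in both plasmids, as it was in NC and Tg3. In Tg1 the lowest share was in replicate 2, at 2.86%, and the highest score in replicate 3. The part of RNA quality or cell state in the differences was not tested. Of the markers of other cell types, COL1A2 had a mean of 922 CPM, CD3E 20.5 CPM, NKG7 17.5 CPM, CD14 8.15 CPM, EMCN 2.52 CPM and CD68 2.34 CPM, while the defining markers named above were near 0. COL1A2 and CD3E had within-plasmid SDs of 0.06 and 0.10. EMCN, an endothelial sialomucin at 1.01 to 3.99 CPM, had a log2 fold change of 0.51 in replicate 2. Of the 4 tested leukocyte markers, 3 (NKG7, CD14 and CD68) had higher values in replicate 2, all 3 with an unadjusted p under 0.05, and the median log2 fold change of the 4 was 0.16. The part of these markers in the results was not tested.

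Among the most variable genes with a symbol, by deviance within plasmids, were CXCL11, STEAP4, CXCL10, CCL2, SIGLEC1, IL4I1, PRICKLE2, IL28B, C2, NR4A1, PMAIP1, OASL, USP18 and GHSR. Of the 50 most variable genes, with or without a symbol, 13 were in the interferon lists, which hold 1.04% of the genes tested. ENSSSCG00000035185, with nearly the values of IL28B, was among the 50 but not among these 13. Of the 50, 42 had a positive loading on the first component. STEAP4, a metalloreductase, had 11.9, 18.0 and 5.55 CPM in NC replicates 1, 2 and 3, 8.33, 26.8 and 4.20 CPM in WT, 13.1, 23.2 and 22.8 CPM in Tg1, 40.1, 29.99 and 15.3 CPM in Tg2, and 19.5, 27.7 and 17.8 CPM in Tg3. It followed the order of the interferon-related genes in NC, WT, Tg2 and Tg3, and WT replicate 2 was 6.38-fold above replicate 3. IL4I1, a secreted amino acid oxidase, had 12.2, 35.5 and 8.28 CPM in WT, and C2, a complement component, 27.7, 54.3 and 19.0 CPM. PMAIP1, the pro-apoptotic protein NOXA, had 19.1, 43.8 and 12.96 CPM in WT. PRICKLE2, of the planar cell polarity pathway, had 11.8, 25.9 and 5.04 CPM there, and GHSR, the ghrelin receptor, 171, 375 and 119 CPM.

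NR4A1, an immediate-early nuclear receptor, had 127, 126 and 168 CPM in NC replicates 1, 2 and 3, 315, 116 and 347 CPM in WT, 151, 182 and 195 CPM in Tg1, 95.2, 157 and 183 CPM in Tg2, and 150, 86.1 and 152 CPM in Tg3. It had the lowest loading of all genes on the first component, and replicate 2 was its lowest well in NC, WT and Tg3. In Tg2 replicate 1 was its lowest well, and in Tg1 its wells had the same order as most interferon-related genes, with replicate 3 highest. The related NR4A3, picked here after its values were seen, had its highest WT level in replicate 2, with 6.94, 18.1 and 4.07 CPM there. The 2 genes with the largest spreads had no symbol and followed no number. ENSSSCG00000012103 was listed at 0 in NC replicate 2, WT replicate 3, Tg1 replicate 3 and Tg3 replicate 2 and at 5.94 to 10.4 CPM in the other wells. ENSSSCG00000036341 was highest in those same 4 wells, at 7.37 to 9.15 CPM, and at 0 to 2.36 CPM elsewhere. The division of reads between these 2 identifiers was not examined, so their spread may not be one of gene expression.

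The remaining lists showed smaller differences, and edgeR called 0 genes in any of them. Over all 11553 genes tested, 5518 had higher and 6030 lower values in replicate 2. At an unadjusted p under 0.05 in edgeR these were 1576 (13.6%) and 1507 (13%). Of 25 NF-kappaB and inflammatory genes, 24 had higher values in replicate 2 and 18 an unadjusted p under 0.05, with a median log2 fold change of 0.16. BIRC3, an inhibitor of apoptosis, gave 0.26 (SE 0.07) and VCAM1, an adhesion molecule, 0.57 (SE 0.17). The 31 immediate-early and MAPK feedback genes were divided, with 12 higher and 19 lower in replicate 2 and 7 and 1 at an unadjusted p under 0.05. In WT, where replicate 2 was the highest well of most interferon-related genes, it was the lowest for 22 of the 31, and in Tg3 for 20. Over all 11553 genes replicate 2 was lowest for 4808 in WT and 4403 in Tg3. In Tg1 the order was that of the interferon-related genes, with replicate 1 lowest for 30 and replicate 3 highest for 25. Over all genes these were 4247 and 3892. SERTAD1, a cell cycle regulator, and DUSP6, a phosphatase that acts on ERK, were above both other wells in all 5 plasmids, with log2 fold changes of 0.24 (SE 0.06) and 0.20 (SE 0.05). EREG, a ligand of the EGF receptor, gave 0.32 (SE 0.08), and 10 of 11 members of its list had higher values.

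Of 19 DNA replication and repair genes all had higher values in replicate 2 and 12 an unadjusted p under 0.05, with a median of 0.13. PCNA, the sliding clamp of DNA polymerase, had 118, 124 and 110 CPM in NC replicates 1, 2 and 3, 114, 124 and 111 CPM in WT, 111, 128 and 128 CPM in Tg1, 142, 158 and 135 CPM in Tg2, and 133, 148 and 134 CPM in Tg3. It was highest in replicate 2 in all 5 plasmids, by a log2 fold change of 0.14 (SE 0.03). BRCA1, a DNA repair gene, gave 0.32 (SE 0.08) and was highest in replicate 1 in Tg2. Of 17 mitosis genes only 4 had higher values. All 15 hypoxia-responsive and glycolytic genes had higher values, 11 with an unadjusted p under 0.05 and a median of 0.11. Higher values in replicate 2 were also found for 6 of 7 heat shock genes, 14 of 18 ribosome biogenesis genes and 10 of 13 epithelial junction genes. Only 6 of 14 sterol and lipid synthesis genes and 6 of 23 large cytoskeletal and signalling genes had higher values, against 5518 of all 11553 genes. In the list of endoplasmic reticulum stress and amino acid response NUPR1, a stress-induced chromatin protein, gave 0.48 (SE 0.12) and PSAT1, an enzyme of serine synthesis, -0.16 (SE 0.04).

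Lower values in replicate 2 were found for the mitochondrially encoded genes and for several tubule transporters. All 13 mitochondrially encoded genes had lower values, 7 with an unadjusted p under 0.05, at a median log2 fold change of -0.11. CYTB, a subunit of respiratory complex III, gave -0.20 (SE 0.07). Of 19 proximal tubule transporters and brush border enzymes 13 had lower values, 11 of these with an unadjusted p under 0.05, and 6 had higher values, all 6 at that level. SLC9A3, the sodium-proton exchanger NHE3, had 31.5, 26.2 and 34.8 CPM in NC replicates 1, 2 and 3, 32.3, 25.3 and 36.3 CPM in WT, 28.6, 21.2 and 24.6 CPM in Tg1, 19.1, 21.6 and 26.4 CPM in Tg2, and 26.2, 19.7 and 26.6 CPM in Tg3. It was lowest in replicate 2 except in Tg2, where replicate 1 was lowest, and the log2 fold change was -0.32 (SE 0.07). SLC34A1, a sodium-phosphate cotransporter, gave -0.19 (SE 0.05) and LRP2, the endocytic receptor megalin, -0.14 (SE 0.04), and both were lowest in replicate 2 in all 5 plasmids. The water channel AQP1 gave -0.25 (SE 0.06). Fewer cells of a kind and less RNA per cell cannot be told apart in such whole-well samples.

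**Figure D4:**
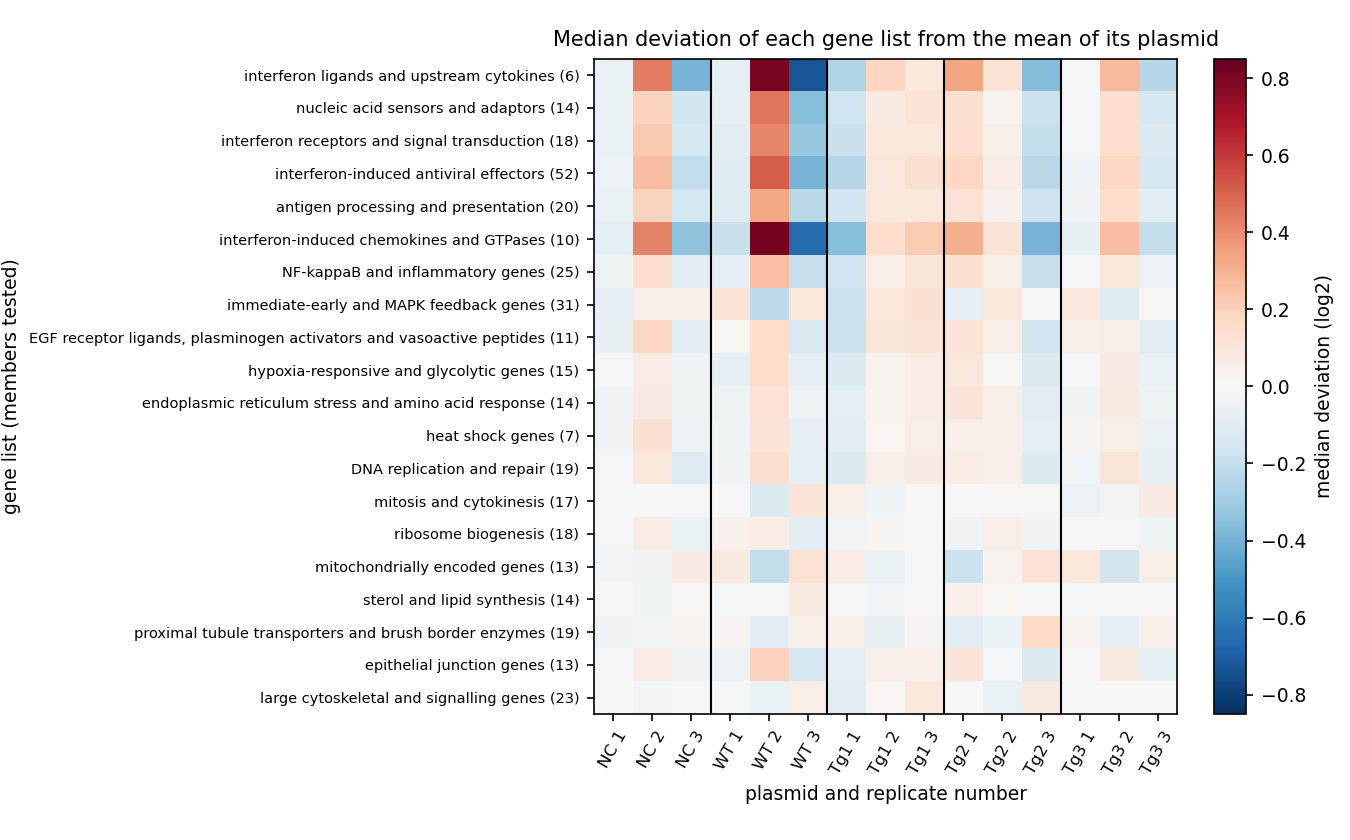
Median deviation from the plasmid mean (log2 CPM, red above and blue below 0) of 20 gene lists (rows, with the number of members tested) in the 15 wells (columns). The 6 interferon lists share their lowest well in each plasmid, the immediate-early list has its lowest median in WT replicate 2 at -0.22, and the mitochondrially encoded genes are lowest in WT replicate 2 at -0.20.

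The genes with the smallest p-values for replicate 2 were not in any of the lists. They were ranked by the p of this same comparison, with the plasmid as a block, so a like sign in the plasmids follows from the ranking and supports nothing. The 5 highest-ranked genes with a symbol and higher values were STN1, a subunit of the CST complex at telomeres, LAMTOR2, a lysosomal scaffold of mTOR and MAPK signalling, SCLT1, a centriole protein, RPAP3, a cochaperone of RNA polymerase assembly, and PTGIR, the prostacyclin receptor. STN1 had 24.5, 30.2 and 23.6 CPM in NC replicates 1, 2 and 3, 21.4, 32.4 and 20.5 CPM in WT, 26.3, 30.5 and 29.4 CPM in Tg1, 32.5, 36.2 and 29.5 CPM in Tg2, and 27.8, 32.8 and 27.1 CPM in Tg3. Replicate 2 was above both other wells in each plasmid, and the log2 fold change was 0.31 with an SE of 0.06 (edgeR adjusted p = 0.0787). The others gave 0.21 (SE 0.04) for LAMTOR2, 0.47 (SE 0.10) for SCLT1, 0.23 (SE 0.05) for RPAP3 and 0.37 (SE 0.08) for PTGIR, of which SCLT1 was above both other wells in 4 plasmids and the rest in 5.

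On the lower side stood AKAP11, an anchor of protein kinase A, ANKS1A, an adaptor of Eph receptors, SIK2, a salt-inducible kinase, SH3TC1 and KLHDC7A. AKAP11 had the smallest p of all genes named here. Its levels were 87.0, 73.3 and 86.9 CPM in NC replicates 1, 2 and 3, 84.1, 69.8 and 86.8 CPM in WT, 74.8, 66.3 and 71.5 CPM in Tg1, 65.7, 62.2 and 73.3 CPM in Tg2, and 77.05, 68.9 and 79.2 CPM in Tg3. Replicate 2 was the lowest well in each plasmid, at a log2 fold change of -0.20 with an SE of 0.03 (edgeR adjusted p = 0.0787). The other 4 were also lowest in replicate 2 in all 5 plasmids, with log2 fold changes of -0.18 for ANKS1A, -0.21 for SIK2, -0.16 for SH3TC1 and -0.19 for KLHDC7A. All 5 differences were smaller in size than the threshold of 0.26.

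**Figure D5:**
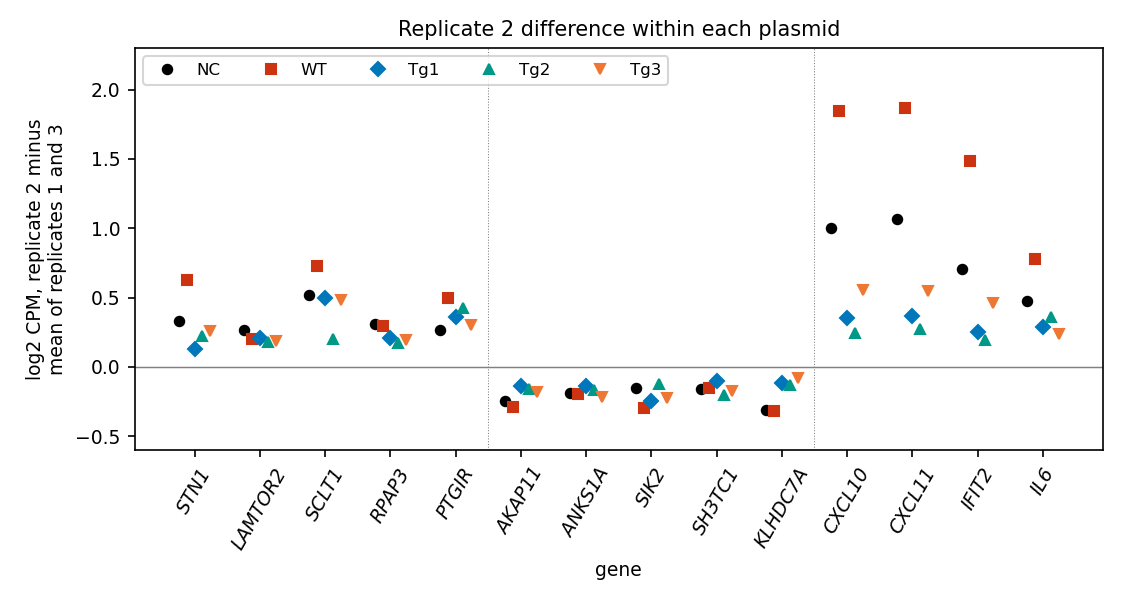
Log2 CPM of replicate 2 minus the mean of replicates 1 and 3 within each plasmid (symbols) for the 5 genes with higher and the 5 with lower values ranked first, and for 4 interferon-related genes. The 10 ranked genes were chosen by this difference, so that their plasmids lie on the same side of 0 follows from the choice, and for CXCL10 the difference ran from 0.24 in Tg2 to 1.85 in WT.

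The number of genes called among plasmids changed with a replicate block and with single wells left out. The cause was not tested. In a test of any difference among the 5 plasmids, edgeR called 619 genes (5.36%), including 5 of the 120 interferon-related genes, which were HLA-DRA, SLA-DMA, CD74, IRF3 and CCL19. Those 5 of 120 are a share near that over all genes. Blocking on the 3 replicate numbers gave 2429 of the 11553 genes tested, and 87 of the 120 interferon-related genes. Same-numbered wells did not all correlate over 0.1 in their deviations, so this block is given only as an alternative. Without the block the count depended on single wells of every plasmid. It was 3266 without WT replicate 2, 1411 without Tg2 replicate 3 and 0 without Tg1 replicate 2, and 434 without NC replicate 2, and it lay between 13 (without NC replicate 1) and 313 (without Tg1 replicate 3) when any 1 of the remaining 11 wells was left out. WT replicate 2 was the well with the highest first component score.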

How the data were processed

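RNA-seq was carried out on 15 wells of LLC-PK1 cells. The deposited values are expected counts per Ensembl gene that the authors obtained with Salmon and the pig cDNA of Ensembl, as whole numbers without normalization. How transcripts were summed to genes is not given in the sources used here. Groups and replicate numbers came from the sample titles. Symbols came from the supplementary gene tables of the study (1432 identifiers) and otherwise from a gene name table (11989), and 3234 identifiers had none. The authors used DESeq2; here edgeR 4.0.16 in R 4.3.3 was used, with TMM normalization, genes with a mean CPM of at least 2, all 15 libraries in each fit and Benjamini-Hochberg adjustment over all 11553 genes. The SE of a log2 fold change was its size divided by the square root of F. Log2 CPM used a prior count of 1, and within-plasmid SDs have 10 degrees of freedom. A gene was called with an adjusted p of at most 0.05 and, where there is a single fold change, a log2 fold change of at least 0.26 in size. The p-values measure the spread between wells. Fits were tested on simulated counts.

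The wells, lists and tests were chosen with earlier results of these data known. The genes named are the 5 with a symbol and the smallest p in each direction, in each interferon list the 3 with the largest spread and the 3 with the smallest p, the 15 most variable genes with a symbol (1 is not reported here), and up to 3 per other list with the smallest p. JAK1, MAVS, IRF3, TRAF3, CCL19, SOCS3, LRP2, SLA-DMA, CD74, NR4A3, ENSSSCG00000035185 and the 2 identifiers with the largest spreads were picked after their values were seen. Alternatives were DESeq2 1.42.0, DESeq2 size factors, other filters, no fold-change threshold, no plasmid block, a factor of 3 numbers, a replicate block, and leaving out each library or plasmid. No genome or sequence table was used here, so no promoter is shown.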

Additional observations from a re-analysis of the deposited data

Results flagged for a closer look

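For each of 65 named genes and 25 gene lists, the 5 replicate 2 differences (log2 CPM of replicate 2 minus the mean of replicates 1 and 3, 1 per plasmid) were examined for a plasmid that stood apart by Dixon's criterion at the 95% level. This picked out 2 of 90, where chance alone flags about 1 in 20. VCAM1 had a difference of 1.37 in WT, against 0.34 to 0.51 in the other plasmids, and EREG had 0.58 in WT, against 0.23 to 0.31. No gene passed the edgeR test of a replicate 2 difference that depends on the plasmid.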

How the results depend on the processing

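The depth was similar in all libraries, and the limit lies in 1 well per plasmid and number and in numbers whose meaning is not known. Same-numbered wells of different plasmids had correlations of their deviations from -0.53 to 0.72 (30 pairs, mean 0.19), all 10 over 0.1 for number 2 but 5 of 10 for number 1 and 6 of 10 for number 3, and 9 of 15 wells correlated best with a well of their own number. Differently numbered wells had a mean of -0.098 (60 pairs, 22 over 0.1). Pairing was to be accepted where every same-numbered pair was over 0.1, which held for number 2, singled out with results known, and not over all numbers. With a replicate block of 3 numbers the test of any difference among plasmids called 2429 of 11553 genes, and 87 of the 120 interferon-related genes. With a block of number 2 against the others, chosen after seeing the data, it called 2631 of 11553 genes.

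For replicate 2 against 1 and 3 the count stayed at 0 with DESeq2 size factors, no filter, another filter, no fold-change threshold, no plasmid block, a 3-level factor, and without NC, WT, Tg1 or Tg3. It was 195 with DESeq2 and 548 without the Tg2 plasmid, and between 0 and 640 with any 1 library left out. With DESeq2 the counts were 445 for replicate 2 against 3, 1 for 1 against 3 and 265 for any difference. With no filter they were 343 for replicate 2 against 3, 1 for a difference that depends on the plasmid and 387 for any difference among plasmids. Leaving out single libraries gave 0 to 1157 for replicate 2 against 3, 0 to 1692 for any difference among numbers, and 0 to 3266 for any difference among plasmids, and 0 in every fit for replicate 2 against 1, for 1 against 3 and for the dependence on the plasmid. The cause was not tested.

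Of the 120 interferon-related genes, 116 or 117 were higher in replicate 2 under every alternative; those with an unadjusted p under 0.05 numbered 32 with no plasmid block, 91 without the WT plasmid and 88 without WT replicate 2, where the median log2 fold change was 0.21. Their median within-plasmid SD ranged from 0.20 to 0.28 over single libraries left out, and that of all genes from 0.087 to 0.094. None of the 65 named genes examined under the alternatives changed sign in any of them. The promoters of interferon genes were not examined.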
